A study of Mus musculus with 11 samples.

Results

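Arntl, Clock and Npas2 encode the activating arm of the mammalian circadian clock, and their transcripts were followed here in mouse skin after dosing with ABBV-075. The 3 genes were chosen by name, with earlier results of these data known. All 8 probe sets annotated to 1 of them alone were taken, out of 45101 probe sets on the array. The brightest probe set of each gene, by its mean level over all arrays, stands for that gene. The mean brightness is the only measured value in that choice of probe set, so it is given as a description with no test. All 3 genes were among the 13710 genes of 18194 that passed a filter on dim signals. The filter asked for signal above the array's 40th percentile on at least 3 arrays. Arntl and Clock met it on all 11 arrays, and Npas2 on 7, namely 4 of 4 at 24 h, 1 of 4 at 6 h and 2 of 3 in vehicle.

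ABBV-075 (mivebresib) inhibits the BET bromodomain proteins, which bind acetylated histones and promote transcription. Skin was collected 24 h (4 arrays) and 6 h (4 arrays) after 1 mg/kg of the compound, and from vehicle-dosed mice (3 arrays). The labels give no strain, age, sex or route of dosing, no hour of the day for any group, and no interval between dosing and collection for vehicle skin. The design counts 3 mice for vehicle and 4 for ABBV-075, and does not say whether the 6 h and 24 h skin came from different mice. Time after dosing and hour of the day therefore cannot be told apart between these groups.

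BMAL1, the product of Arntl, pairs with CLOCK or with its paralogue NPAS2, and the pair binds E-box sequences to switch on the Per, Cry, Nr1d and Dbp genes. The PER and CRY proteins then inhibit the pair, while the REV-ERB proteins (Nr1d1, Nr1d2) repress Arntl and the ROR proteins activate it through a shared response element. In most tissues, skin included, Arntl and Npas2 peak when Dbp and the Per genes are low, and Clock varies less.

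The promoter sequences below show where that response element lies at Arntl. They are RefSeq sequences of build GRCm38.p6, read 5′ to 3′ along the gene, and the start site is base +1 with base -1 before it. The letters searched were CACGTG (the E-box) and AGGTCA and AGGTTA (half-sites of the ROR and REV-ERB element), on both strands, in windows reaching from 250 bases before the start site to 50 bases after it. No motif searched overlaps another in the windows of these genes, and capitals mark the matches. Arntl (chromosome 7, 113178471 to 113314126) had 2 overlapping windows. From the start site of the second, AGGTTA has its first base at -5 and AGGTCA at 32, and the first window holds the same AGGTTA. These are shown as chr7:113207267-113207516 and chr7:113207530-113207559, plus strand.
Arntl, start site: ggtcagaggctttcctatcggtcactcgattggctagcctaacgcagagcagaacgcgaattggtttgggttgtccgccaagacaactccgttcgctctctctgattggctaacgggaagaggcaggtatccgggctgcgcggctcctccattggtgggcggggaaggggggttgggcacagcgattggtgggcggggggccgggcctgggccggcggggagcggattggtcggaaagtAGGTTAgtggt
Arntl, after the start site: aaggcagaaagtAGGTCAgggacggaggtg

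Clock (chromosome 5, 76209868 to 76305603) had 3 windows, of which 1 held AGGTCA, on the opposite strand with its first base at -119. It is shown as chr5:76303604-76303633, minus strand, where the match reads TGACCT. Npas2 (chromosome 1, 39193702 to 39363240) had 1 window and held none of the 3 motifs; its bases before the start site are shown as chr1:39194022-39194271, plus strand, for comparison with Arntl.
Clock, before the start site: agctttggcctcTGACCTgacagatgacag
Npas2, before the start site: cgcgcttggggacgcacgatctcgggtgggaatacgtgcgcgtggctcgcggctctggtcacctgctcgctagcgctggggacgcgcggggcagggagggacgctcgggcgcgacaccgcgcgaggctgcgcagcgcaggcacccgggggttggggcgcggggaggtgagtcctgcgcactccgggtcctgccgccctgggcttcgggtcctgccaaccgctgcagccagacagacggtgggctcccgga
Of all 32851 promoter windows of this length, 16.3% held AGGTCA, 8.49% held AGGTTA and 7.15% held CACGTG. A match describes the letters and does not show binding.

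Levels below are log2(intensity + 16) after quantile normalization, a scale on which 4.00 is the floor and changes of dim genes are understated. The deposited arrays were not equally bright: their trimmed mean intensity ran from 116 to 183 at 24 h, from 82.8 to 244 at 6 h and from 205 to 244 in vehicle. Beta-actin signal at the 5′ end over that at the 3′ end, a measure lowered by RNA breakage, was 0.406 ± 0.145 at 24 h, 0.289 ± 0.156 at 6 h and 0.547 ± 0.0563 in vehicle (SD, n = 4, 4 and 3). The Gapdh ratio ran from 0.80 to 1.08 at 24 h, 0.10 to 0.71 at 6 h and 0.70 to 0.91 in vehicle. By Gapdh, the 24 h arrays thus lay within or above the vehicle range. Without the 3 arrays whose actin ratio was under 0.3 (24 h replicate 2 and 6 h replicates 3 and 5), 24 h minus vehicle was 1.20 for Arntl, 0.35 for Clock and 1.18 for Npas2. The Gapdh ratios of these 3 arrays were 0.80, 0.71 and 0.10. Of the keratinocyte markers, all 6 basal and all 5 suprabasal ones were kept. So were all 7 skeletal muscle, 6 fibroblast, 6 macrophage and 5 endothelial markers, and 3 of 5 hair shaft markers. Passing the filter therefore does not test the tissue label. In whole skin, fewer cells of a type and less RNA per cell cannot be told apart.

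At 24 h all 3 activators lay above vehicle on every array, by 1.18 for Arntl, 1.08 for Npas2 and 0.35 for Clock. At 6 h the arrays of all 3 overlapped those of vehicle, with differences of 0.22 for Arntl, 0.10 for Clock and -0.47 for Npas2. Both comparisons share the vehicle arrays. None of these differences passed limma's test over all genes, in which no gene passed in any of the 3 comparisons.

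Arntl, the obligate partner of the pair, had levels of 8.36, 8.38, 8.69 and 8.39 in 24 h replicates 1, 2, 3 and 4. Its levels were 7.78, 7.16, 7.49 and 7.57 in 6 h replicates 1, 2, 3 and 5, and 7.56, 7.24 and 7.03 in vehicle replicates 1, 3 and 4. All 24 h arrays lay above all others, whereas the 6 h and vehicle arrays were interleaved. Arntl averaged 8.45 ± 0.16 at 24 h and 7.28 ± 0.27 in vehicle (SD, n = 4 and 3), a difference of 1.18 ± 0.19 (SE), or 2.26-fold on this scale (95% interval of the difference 0.75 to 1.60; limma adjusted p = 0.254). Its p was the 4th smallest of 13710 genes in that comparison. Against the 6 h mean of 7.50 ± 0.25 (n = 4), 24 h skin was higher by 0.95 ± 0.18 (limma adjusted p = 0.141). Without the 3 arrays of low actin ratio that difference was 1.00 (limma adjusted p = 0.371). The 6 h minus vehicle difference of Arntl was 0.22 ± 0.19 (95% interval -0.20 to 0.65; limma adjusted p = 0.595), less than the spread between arrays.

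Npas2, the CLOCK paralogue, had levels of 6.04, 6.21, 6.39 and 6.73 in 24 h replicates 1, 2, 3 and 4. Its levels were 5.29, 4.80, 4.79 and 4.29 in 6 h replicates 1, 2, 3 and 5, and 5.57, 5.21 and 5.01 in vehicle replicates 1, 3 and 4. The 24 h arrays stood clear of both other groups, and 3 of the 4 arrays at 6 h lay below all vehicle arrays, close to the floor. Npas2 averaged 6.34 ± 0.30 at 24 h, 4.79 ± 0.41 at 6 h and 5.26 ± 0.28 in vehicle (SD, n = 4, 4 and 3). The 24 h level exceeded the 6 h level by 1.55 ± 0.23 (95% interval 1.03 to 2.06; limma adjusted p = 0.0672, with the 7th smallest p of 13710 genes). Without the 3 arrays of low actin ratio that difference was 1.41 (limma adjusted p = 0.314). The 24 h level exceeded vehicle by 1.08 ± 0.25 (95% interval 0.52 to 1.63; limma adjusted p = 0.524). Because Npas2 is dim, these sizes follow the offset added before the logarithm: with offsets of 4 and 64 in place of 16, 24 h minus 6 h was 2.20 and 0.76, and 24 h minus vehicle 1.39 and 0.58. At 6 h Npas2 differed from vehicle by -0.47 ± 0.25 (95% interval -1.03 to 0.085; limma adjusted p = 0.389). This value was -0.23 without the 3 arrays of low actin ratio, -0.19 with that ratio as a covariate and -0.22 with the replicate number as a block.

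Clock had levels of 9.27, 9.05, 9.19 and 8.85 in 24 h replicates 1, 2, 3 and 4. Its levels were 8.87, 8.81, 8.95 and 8.75 in 6 h replicates 1, 2, 3 and 5, and 8.75, 8.68 and 8.79 in vehicle replicates 1, 3 and 4. No vehicle array reached the level of a 24 h array, though 24 h replicate 4 exceeded the highest vehicle array only narrowly and fell within the range of the 6 h arrays. Clock averaged 9.09 ± 0.18 at 24 h and 8.74 ± 0.057 in vehicle (SD, n = 4 and 3), a difference of 0.35 ± 0.15, or 1.27-fold (95% interval 0.015 to 0.68; limma adjusted p = 0.640). Its 6 h mean of 8.85 ± 0.084 (n = 4) lay 0.10 ± 0.15 above vehicle (limma adjusted p = 0.763), and 24 h minus 6 h was 0.24 ± 0.14 (limma adjusted p = 0.646).

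**Figure D1:**
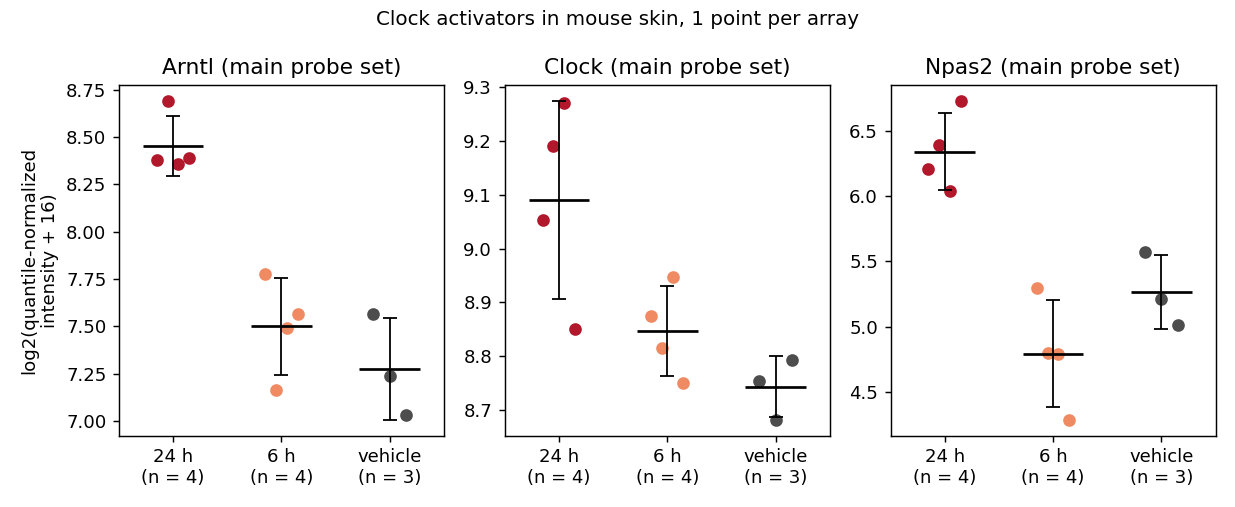
Levels of the main probe sets of Arntl, Clock and Npas2, as log2(quantile-normalized intensity + 16), with 1 point per array, a line at the group mean and bars of 1 SD (n = 4 at 24 h, 4 at 6 h, 3 in vehicle); the 3 vertical axes differ. The 24 h points of Arntl (8.36 to 8.69) and Npas2 (6.04 to 6.73) lie above all 6 h and vehicle points, while those of Clock (8.85 to 9.27) overlap 6 h.

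The share of all genes that behaved this way sets the scale. Between 24 h and vehicle, 5.09% of the genes tested lay higher with no overlap between the arrays of the groups, as all 3 activators did. Between 24 h and 6 h it was 1.92%, as Arntl and Npas2 did, and between 6 h and vehicle 9.77%, as none of the 3 did. By limma's adjusted p, 0% of genes were called in each of the 3 comparisons. At an unadjusted p under 0.05, 1046 genes (7.63%) passed between 24 h and vehicle, of which 433 (3.16%) were higher at 24 h, all 3 activators among them. The counts were 2202 genes (16.1%) between 6 h and vehicle, with none of the 3, and 1271 genes (9.27%) between 24 h and 6 h, of which 516 (3.76%) were higher, Arntl and Npas2 among them. With limma's array weights, 59, 2498 and 423 genes were called in these comparisons, and Arntl and Npas2 were among those higher at 24 h than vehicle (adjusted p = 0.0194 and 0.036) and than 6 h (0.0146 and 0.00795).

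The deposited intensities, before any normalization, gave the same arrangement for Arntl and Npas2 between 24 h and vehicle. Arntl read 350.3, 241, 276 and 249.7 in 24 h replicates 1 to 4, against 238, 202 and 152 in vehicle replicates 1, 3 and 4. Npas2 read 60.6, 43.2, 50.1 and 81.1 in 24 h replicates 1 to 4, against 33.4, 28.1 and 21.3 in the same vehicle replicates. These arrays did not overlap, although the 24 h arrays were dimmer as a whole: without normalization the median gene differed by -0.62 between 24 h and vehicle, and Arntl by 0.48. Relative to that median, Arntl lay 1.10 higher, Npas2 1.38 higher and Clock 0.23 higher at 24 h. Clock itself was -0.39 as deposited, below vehicle, and 0.034 after median scaling, so that its direction at 24 h depends on the scaling. At 6 h the deposited values put all 3 genes below vehicle (Arntl -0.56, Clock -0.71, Npas2 -0.71), where the median gene differed by -0.68. Between 24 h and 6 h the deposited Arntl arrays overlapped: 6 h replicate 1 read 318, above 24 h replicates 2, 3 and 4. The highest Npas2 reading at 6 h was 34.0, in replicate 1, below every 24 h array. Deposited differences given below carry the same shifts of the median gene.

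The other probe sets of each gene were set beside the main one, in a limma fit over all 45101 probe sets. Its standard errors cannot be read beside those above: that of the main Clock probe set was 0.10 here and 0.15 there. The second Arntl probe set, 1457740_at, was dim (4.75 to 5.98). It gave 0.67 ± 0.23 between 24 h and vehicle with no overlap, and 0.12 ± 0.23 between 6 h and vehicle. For Clock, 1418660_at gave 0.38 ± 0.23 and 1435775_at 0.40 ± 0.20 between 24 h and vehicle, both with overlapping arrays, and -0.11 ± 0.23 and -0.015 ± 0.20 between 6 h and vehicle. The second Npas2 probe set, 1421036_at, was below 0 in the deposited values on 9 of the 11 arrays and carried no usable level.

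The remaining Clock probe set, 1439314_at, lay above vehicle at both times on the normalized scale. It read 7.40, 7.40, 7.24 and 7.18 in 24 h replicates 1 to 4, 6.97, 7.07, 7.08 and 7.34 in 6 h replicates 1, 2, 3 and 5, and 6.51, 6.38 and 6.49 in vehicle replicates 1, 3 and 4. After quantile normalization both dosed groups stood clear of vehicle on this probe set, by 0.85 ± 0.099 at 24 h (limma adjusted p over all probe sets = 0.0916) and by 0.65 ± 0.099 at 6 h (0.061). As deposited, the arrays of both dosed groups overlapped those of vehicle, and the differences were 0.29 at 24 h and -0.038 at 6 h. The median gene differed by -0.62 and -0.68 there. The other 3 Clock probe sets, once normalized, gave -0.11 to 0.10 at 6 h, and the difference between probe sets was not tested.

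**Figure D2:**
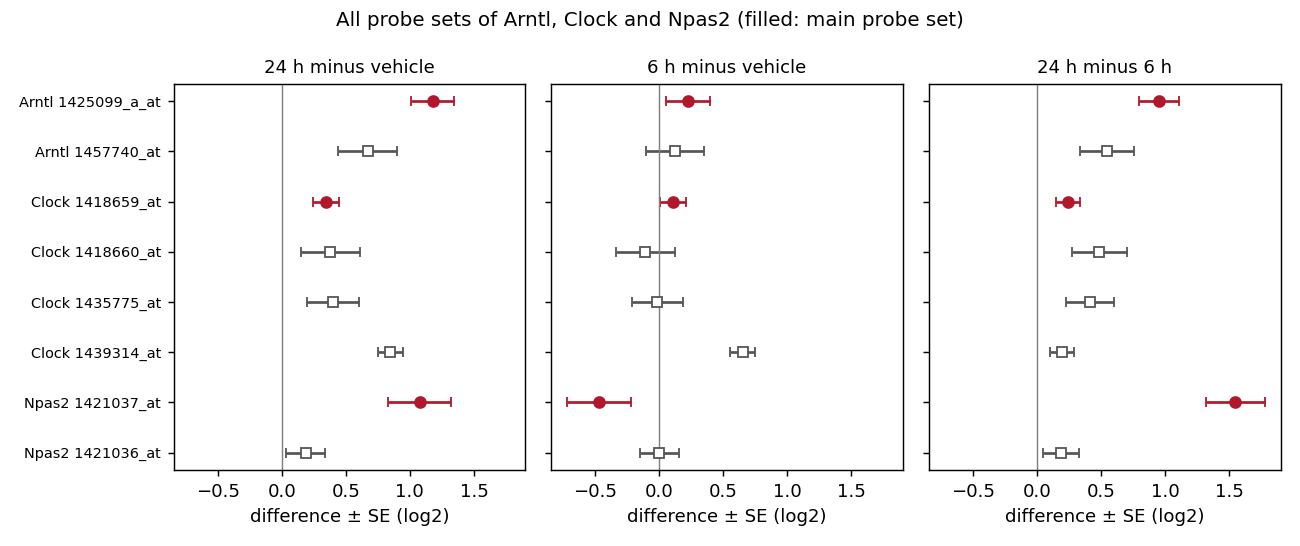
Difference on the log2 scale ± SE from the fit over all probe sets, for the 8 probe sets (rows) in 3 comparisons (panels), with the main probe set of each gene filled. At 24 h minus vehicle the 7 probe sets with a usable level lie above 0 on this normalized scale. As deposited, 3 Clock probe sets lie at -0.39 to -0.24, where the median gene differed by -0.62. At 6 h minus vehicle Clock 1439314_at (0.65) stands apart from the other Clock probe sets (-0.11 to 0.10).

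Within groups, no pair of the 3 genes had a correlation that passed the test after quantile normalization. The 24 h arrays form a cluster of their own for Arntl and Npas2, so correlations were taken on each array's deviation from its group mean (n = 11 arrays, 3 pairs, permutation test, Benjamini-Hochberg over the 3). They were 0.45 for Arntl and Npas2 (adjusted p = 0.495), 0.13 for Arntl and Clock (0.714) and -0.24 for Clock and Npas2 (0.714). In the deposited values, where array brightness enters every gene, they were 0.81, 0.92 and 0.69 and all passed (adjusted permutation p = 0.00898, 0.00033 and 0.0271). After median scaling Arntl and Clock gave 0.67 (adjusted permutation p = 0.0668).

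**Figure D3:**
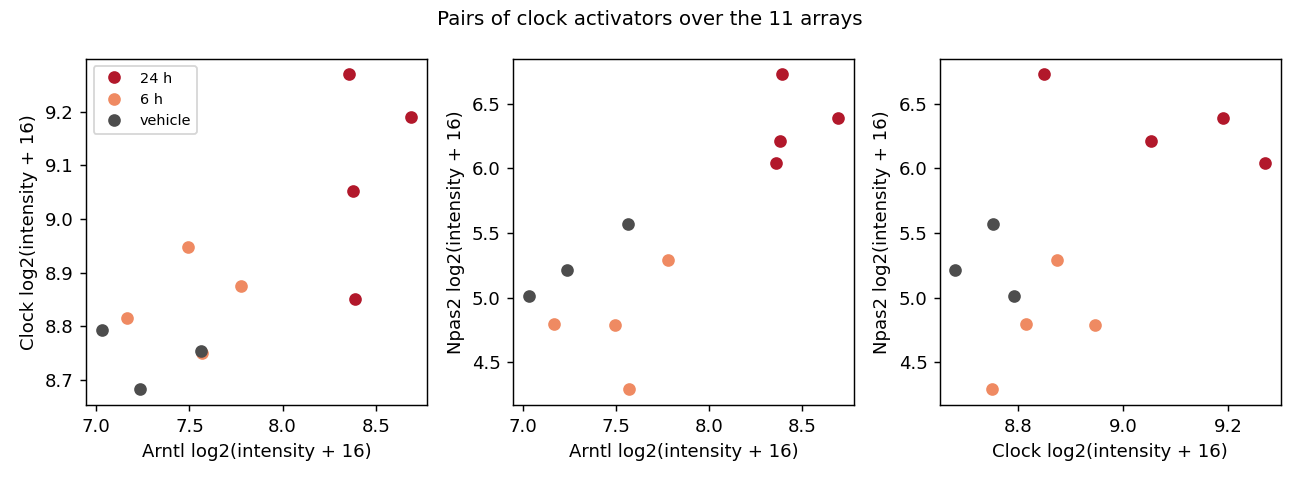
Levels of Clock against Arntl, Npas2 against Arntl and Npas2 against Clock, as log2(quantile-normalized intensity + 16), 1 point per array coloured by group. The 4 arrays at 24 h lie apart at the high end of Arntl and Npas2, and 24 h replicate 4 has the highest Npas2 (6.73) with the lowest Clock of its group (8.85).

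A list of 25 clock genes, chosen with earlier results of these data known, had 22 kept: the 3 activators and 19 others. Of those 19, none was called by limma's adjusted p in any comparison. Between 24 h and vehicle, 13 of the 19 lay below vehicle, with a median difference of -0.41 against -0.020 over all genes tested, and 5 lay lower with no overlap (6.02% of all genes). Between 24 h and 6 h, 17 of 19 were lower, with a median of -0.80 against -0.019 over all genes, and 7 did not overlap (3.54% of all genes). Between 6 h and vehicle, 8 of 19 were lower and the median was 0.031 against 0.0037 over all genes. With the activators included, the 22 genes had a median of -0.29 between 24 h and vehicle. As deposited it was -0.91, where the median of all genes was -0.62. It was -0.16 with the actin ratio as a covariate and -0.45 to -0.18 on leaving out 1 array. The median of 24 h minus 6 h was -0.44, and -0.77 with array weights.

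The lowest 24 h differences in the list belonged to Dbp and the Per genes, all driven by the activator pair. Dbp, a transcription factor whose gene is driven through E-boxes, ranged from 6.79 to 8.55 at 24 h, from 9.37 to 10.36 at 6 h and from 9.22 to 10.44 in vehicle. It differed by -2.39 ± 0.45 between 24 h and vehicle (limma adjusted p = 0.374). Per3 differed by -1.32 ± 0.34 between 24 h and vehicle (limma adjusted p = 0.531) and by -1.47 ± 0.31 between 24 h and 6 h (0.186). Nr1d2, which encodes the repressor REV-ERB beta, averaged 10.28 ± 0.42 at 24 h and 11.11 ± 0.35 in vehicle, differing by -0.83 ± 0.26 with no overlap (limma adjusted p = 0.531). These 3 genes, with Per1 (-1.61) and Per2 (-1.71), are the 5 that lay below vehicle with no overlap. Their 6 h levels lay near vehicle, by -0.013 for Dbp, 0.15 for Per3 and -0.030 for Nr1d2. The Per3 difference was -0.68 as deposited, where the median gene also differed by -0.68, and -0.047 after median scaling.

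The ROR genes, whose products activate Arntl, had intervals on both sides of 0. Rora differed by 0.0039 ± 0.31 between 24 h and vehicle and Rorb by 0.14 ± 0.29. As deposited they differed by -0.75 and -0.089, where the median gene differed by -0.62. Rora was also below vehicle after median scaling (-0.31) and cyclic loess (-0.054). Nr1d1 was below the filter. Arntl2, the paralogue of Arntl, averaged 5.48 ± 0.60 at 24 h and 5.21 ± 0.28 in vehicle, a difference of 0.28 ± 0.35 with overlapping arrays (95% interval -0.49 to 1.04; limma adjusted p = 0.855).

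Cry1, a repressor of the activator pair, was highest at 6 h. It averaged 7.06 ± 0.21 at 24 h, 7.54 ± 0.12 at 6 h and 6.64 ± 0.20 in vehicle. The 6 h arrays lay above both other groups, by 0.90 ± 0.17 against vehicle (limma adjusted p = 0.0915; 0.18 as deposited), while 24 h minus 6 h was -0.48 ± 0.16 (0.382). The 24 h minus vehicle difference of Cry1 was 0.41 ± 0.17 with overlapping arrays. As deposited it was -0.13, where the median gene differed by -0.62. Cry2 differed by -0.21 ± 0.31. Among the bZIP output factors other than Dbp, Tef differed by -0.67, Hlf by 0.065 and Nfil3 by 0.20 between 24 h and vehicle, Hlf and Nfil3 with the opposite sign as deposited.

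**Figure D4:**
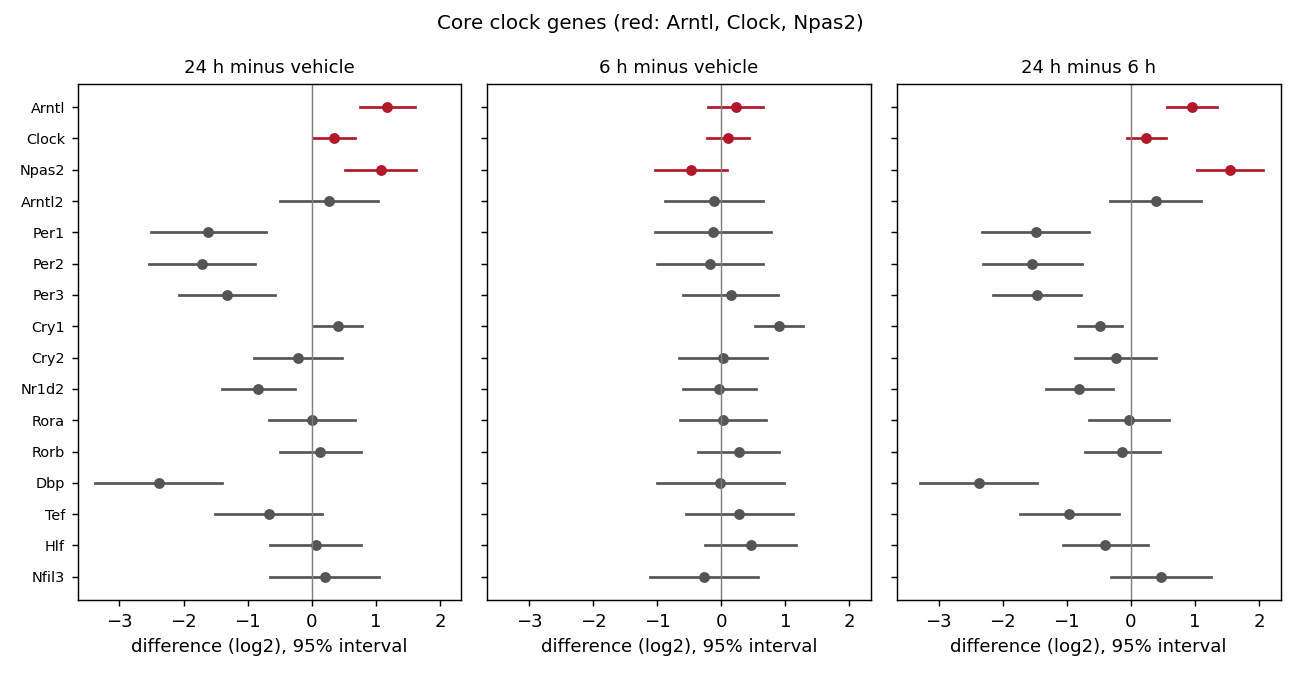
Difference on the log2 scale with its 95% interval from limma for the activators (red) and 13 other core clock genes (grey), in 3 comparisons. Dbp, Per1, Per2, Per3 and Nr1d2 lie below 0 at 24 h against both vehicle and 6 h, where Arntl and Npas2 lie above 0, and Cry1 (0.90) lies highest at 6 h minus vehicle.

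Of 6 further E-box targets and feedback genes kept, all 6 were lower at 24 h than vehicle and than 6 h, and none was called. Bhlhe40, a repressor that competes for E-boxes, differed by -1.07 ± 0.37 between 24 h and vehicle with overlapping arrays, and Wee1, a cell cycle kinase, by -0.73 ± 0.38. Of 5 kinases and ubiquitin ligase subunits kept that act on clock proteins, 3 lay below vehicle at 24 h, with a median of -0.030. Of 10 coactivators and corepressors of the pair kept, 4 lay above vehicle with no overlap at 24 h (Ep300 0.40, Hdac3 0.37, Sirt1 0.34, Ncoa2 0.25; 5.09% of all genes did so), all 4 of them below vehicle as deposited, and Ncoa2 also after median scaling. Sirt1, a deacetylase that acts on BMAL1, differed by 1.01 ± 0.18 between 6 h and vehicle (limma adjusted p = 0.0878), and by 0.23 as deposited.

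The 3 activators belong to the bHLH-PAS family, and a list of 13 other genes of it had 10 kept, with Arntl2, Ncoa2 and Ncoa3 counted in the lists above. Between 24 h and vehicle, 3 of the 10 lay higher with no overlap, as 5.09% of all genes did, and none was called: Ahr, the aryl hydrocarbon receptor, by 0.68 ± 0.21 (-0.055 as deposited), Sim1 by 0.69 ± 0.28 and Hif3a by 0.56 ± 0.22 (0.40 and 0.17 as deposited). As deposited, the median gene differed by -0.62 between 24 h and vehicle. The median of the 10 was 0.11 between 24 h and vehicle and -0.15 between 24 h and 6 h, against 1.08 and 0.95 for the 3 activators.

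The genes kept whose levels followed each activator most closely over the 11 arrays, were ranked by Pearson's r. For Arntl they were Mtg1 (r = 0.93), A430046D13Rik (0.86), B3galt5 (0.85), Wbp1 (0.84) and Rab12 (0.83). For Npas2 they were Nodal (0.92), Atp5g2 (0.90), Has3 (0.89), Necab2 (0.89) and Ift172 (0.89). For Clock they were Pax8 (0.90), Wbp1 (0.84), Mccc2 (0.84), Zfp128 (0.81) and Tmem179 (0.80). These are the highest of 13710 genes, the arrays share their groups and their brightness, and no p is given. Mean levels of the genes named ran from 4.63 (B3galt5) to 10.96 (Atp5g2). The dimmest, among them Has3 (4.81) and Nodal (4.99), lay near the floor. On each array's deviation from its group mean, r ran from -0.28 (Rab12 with Arntl) to 0.88 (Pax8 with Clock). A place in this ranking therefore does not show that a gene followed its activator within groups. No other gene of the clock list was among the genes named. The ranking ran from the highest r, so a gene moving opposite to an activator could not enter it.

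Cell type markers that moved beside the 24 h values were read from the same arrays. The summed normalized intensity of 6 of 6 fibroblast markers was 22561 to 51759 at 24 h and 51973 to 56586 in vehicle, and that of 6 of 6 macrophage markers was 2322 to 13411 at 24 h and 10035 to 19017 in vehicle. The fibroblast sums did not overlap and the macrophage sums did, with 24 h replicate 4 the lowest in both. For 7 of 7 skeletal muscle markers the sums were 53466 to 72822 at 24 h and 42445 to 68235 in vehicle, and for 6 of 6 basal keratinocyte markers 12878 to 42521 and 9805 to 19360, both overlapping. The 5 of 5 endothelial markers kept summed to 444 to 895 at 24 h, 485 to 628 at 6 h and 843 to 1428 in vehicle. These sums overlapped between 24 h and vehicle, whereas the mean log2 level did not (6.32 to 7.14 and 7.16 to 7.84). Of the 5 markers, 4 were lower at 24 h than in vehicle, and Kdr was higher by 0.53. Pecam1, among the lower ones, reached the floor of 4.00 at 24 h. The 4 of 6 adipocyte markers kept summed to 12034 to 33219 at 24 h, 17828 to 31543 at 6 h and 30260 to 35483 in vehicle. At 6 h the fibroblast sums (44268 to 50145) also lay below vehicle. The part of these differences in the clock gene values was not tested. Without 24 h replicate 4, 24 h minus vehicle was 1.21 for Arntl, 0.43 for Clock and 0.95 for Npas2.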

How the data were processed

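Total RNA from mouse skin was hybridised to Affymetrix 3′ expression arrays, per the labels' protocols. The deposited values are linear intensities, 1 per probe set and array, with values below 0; neither the software nor the background correction behind them is stated in the labels. Intensities were quantile-normalized, set to at least 0 and taken as log2(intensity + 16). Probe sets were named from the platform annotation, and only those with 1 gene symbol were used (34958, against 932 with several and 9211 with none). The brightest probe set represented each gene, and genes above the 40th percentile of an array on at least 3 arrays were kept. A single limma fit (3.58.1, R 4.3.3) over the 11 arrays gave two-sided p-values, adjusted by Benjamini-Hochberg over 13710 genes with a threshold of 0.05. Single-array precision is limited by the number of arrays. In data simulated for 24 h minus vehicle on 13710 genes, 43% of 100 genes planted at a log2 change of 1 and 81% of 100 at 2 were recovered, with 3 false calls. These shares describe the simulated data, and recovery in the real arrays was not tested.

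The limma fit above had no replicate block. Same-numbered 24 h and vehicle arrays had positive correlations of deviations (0.246, 0.135 and 0.205 for numbers 1, 3 and 4). Those of the 6 h arrays had either sign (-0.12 and -0.074 with vehicle, -0.064, -0.35 and 0.17 with 24 h). Arrays with different numbers were not compared, so whether the numbers mark pairs was not tested. A fit with the replicate number as a block over all 3 groups was an alternative. The labels name the arrays as replicates. Each limma p-value sets a difference against the spread between arrays within groups, pooled over the 3 groups and moderated across genes. If 6 h and 24 h skin came from the same mice, which is not stated, that spread does not take it into account. Core loop genes are named with values and other lists by counts with examples; pattern neighbours are the 5 genes with the highest Pearson r. The genes and lists were chosen with earlier results of these data known, and the examples after their values were seen. Alternatives were other scalings, filters, offsets, probe set averages, array weights, a replicate block and omission of each array.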

Additional observations from a re-analysis of the deposited data

Results flagged for a closer look

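Arntl in 24 h replicate 3 had a level of 8.69, apart from the other 24 h arrays, which lay between 8.36 and 8.39. The dim Npas2 probe set 1421036_at had a level of 4.69 in 24 h replicate 2, where the other 24 h arrays lay between 4.00 and 4.06, at or near the floor. Each sample was far from its group relative to the group's range by Dixon's criterion, which chance meets in about 1 of 20 groups; 41 groups were tested and these 2 met it. Without 24 h replicate 3, the Arntl difference between 24 h and vehicle was 1.10.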

How the results depend on the processing

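In the deposited values without normalization the direction reversed for Arntl at 6 h minus vehicle (-0.56), Clock at 24 h minus vehicle (-0.39) and Clock at 6 h minus vehicle (-0.71), and median scaling reversed the last as well (-0.046). All of these miss the threshold under both settings. The correlations of deviations were then 0.921 for Arntl and Clock, 0.811 for Arntl and Npas2, and 0.686 for Clock and Npas2, the last reversed. With array weights, Arntl passed at 24 h minus vehicle (1.24) and at 24 h minus 6 h (1.11), and so did Npas2 (1.01 and 1.35). No gene was called over all genes, but 6 were as deposited, 1 without the filter and 59 with array weights at 24 h minus vehicle. At 6 h minus vehicle the counts were 859 as deposited, 7 with the mean of probe sets, 18 without the filter, 2498 with array weights and 1 with the replicate block. At 24 h minus 6 h they were 2 with the mean of probe sets, 423 with array weights and 3 with the actin ratio as a covariate. The cause was not tested.

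Leaving out 1 array at a time, 24 h minus vehicle was 1.06 to 1.31 for Arntl, 0.29 to 0.43 for Clock and 0.94 to 1.21 for Npas2. At 6 h minus vehicle the ranges were 0.10 to 0.36, 0.070 to 0.13 and -0.62 to -0.31, and at 24 h minus 6 h 0.85 to 1.04, 0.18 to 0.33 and 1.40 to 1.66. None of these passed. The number of genes called ran from 0 to 1, 0 to 22 and 0 to 7 in the 3 comparisons; 22 came without 24 h replicate 4 and 7 without 6 h replicate 5. With the replicate block, Arntl gave 1.24 (limma adjusted p = 0.358), Clock 0.36 (0.571) and Npas2 1.13 (0.367) at 24 h minus vehicle, so that it changed no call of the 3 genes. The set of arrays left out for a low actin ratio was chosen after seeing the data. Npas2 was too dim for a filter at the 60th percentile. Dim signal limits Npas2 at 6 h, where 3 of 4 arrays were under the filter's level.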
